A study of Mus musculus with 25 samples.

Results

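Sorted tdTomato+ cells taken from the injured mouse spinal cord 3 months after contusion were compared with the same kind of cells taken at 1 month. The members were the libraries whose labels name these cells and times, which gave 5 of the 25 libraries of the series, 3 at 1 month (replicates 1, 2 and 3) and 2 at 3 months (replicates 1 and 3). Both groups carried the genotype GFAP-Cre-/+:R26-tdT-/+, in which Cre driven by the Gfap promoter switches on a tdTomato reporter permanently, so that a cell is marked if it expresses Gfap or once did. Both received a moderate contusion at thoracic level T9 with a force of 60 kdyn, and the labels name no further agent. The epicentre was digested with papain and trypsin, myelin was removed with beads and tdTomato+ cells were collected by FACS. Each replicate pooled 3 mice, whose age at surgery the labels do not state. The other sorted libraries, used here for the spread between replicates and as a background, were 3 from sham mice (laminectomy alone, taken at 7 days) and 3 taken 7 days after contusion, all of the same genotype. Whole epicentre tissue of C57BL/6 mice at 1 month and 3 months after the same contusion, with 3 libraries per time, served to show where the sorted cells differed.

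After a contusion, astrocytes and other glia near the lesion divide, enlarge and form a border around infiltrating cells within weeks, and the scar then persists. Dividing cells switch on a shared set of genes for DNA replication, spindle assembly and chromosome segregation. Major histocompatibility complex (MHC) class I and class II proteins present peptides to T cells, class I on most cells and class II mainly on phagocytes and B cells, and glia can raise both under inflammation.

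The label of astrocytes was compared with defining markers as CPM, a gene's count scaled to a common library total, per kb of exon, a scale on which genes can be set beside each other. Astrocyte genes were detected but low: Gfap, the astrocyte intermediate filament, had 46.7 to 62.5 CPM per kb at 1 month and 39.8 to 41.9 at 3 months. The water channel Aqp4 had 10.2 to 14.2 and then 7.41 to 10.2. Pdgfra, the receptor that defines oligodendrocyte precursors, had 259 to 277 and then 165 to 178. C1qa, a complement gene of microglia and macrophages, had 608 to 997 and then 1470 to 2290. Neuronal Snap25 stayed at or under 4.78 and endothelial Pecam1 at or under 7.6. Cldn5, also endothelial, was higher, with 21.3 to 23.3 and then 32.7 and 63.0, above Aqp4 in all 5 libraries. The 5 libraries therefore carried precursor and phagocyte markers at higher levels than astrocyte markers, which goes partly against the label, and the cells are called sorted tdTomato+ cells below. In such bulk samples, fewer cells of a type and less RNA per cell cannot be told apart.

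The libraries held 34387984 to 50211071 counts at 1 month and 36326982 and 22466743 at 3 months. Of 43693 genes, 24286 passed the filter on low counts and were tested. Within a group the median SD of log2 CPM across genes was 0.158 at 1 month and 0.181 at 3 months, against 0.338 in the sham libraries. The 3-month pair differed in a few lists: the summed CPM of 16 ependymal genes was 1529 in replicate 1 and 632.3 in replicate 3, against 821.4 to 1037 at 1 month.

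From 1 month to 3 months, 17 of 35 genes of cell division fell, and 6 of 21 genes of antigen presentation rose, as did the lipid carrier Apoe. At a Benjamini-Hochberg adjusted p of 0.05 over all genes (edgeR's quasi-likelihood test), 32 genes rose and 102 fell. These made up 0.132% and 0.42% of the genes tested, and 0.552% together. The change was at least 2-fold for 26 of the rises and 77 of the falls. In all 134 genes, both 3-month libraries lay outside the range of the 3 at 1 month. The same values entered the calls, so this separation is not separate evidence. Over all genes both 3-month libraries lay above every 1-month library in 15.9% and below every one in 16.6%, and the median log2 change was 0.

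The number of genes called depended on single libraries and on which others shared the fit. It was 22, 36 and 35 without replicates 1, 2 and 3 at 1 month, 73 without replicate 1 at 3 months and 18 without replicate 3 at 3 months. Fitted on the 5 libraries alone, 1565 genes were called (7.18%), 767 higher and 798 lower (3.52% and 3.66%), and these included all 32 rises and 101 of the 102 falls. Of the rises 3 were called in all 5 omissions, H2-Ab1, H2-Eb1 and Atp6v0d2. Of the falls 6 were, among them Foxm1, Racgap1, Cenpf, Aspm and Mki67, and each call outside these 9 genes was lost in at least 1 omission.

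**Figure D1:**
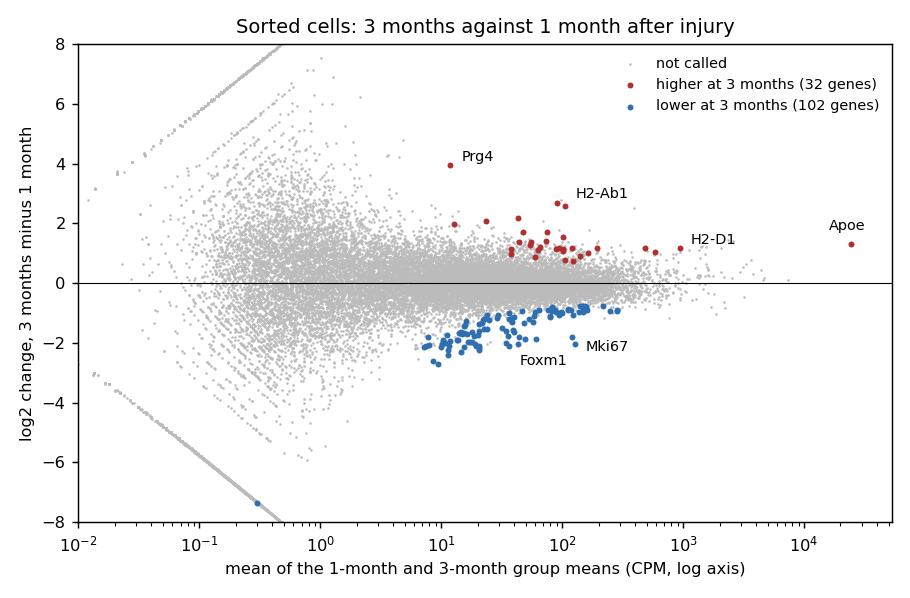
Change of each tested gene in sorted cells from 1 month to 3 months (log2, vertical axis) against its mean level (CPM, logarithmic horizontal axis); red points are the 32 genes called higher, blue points the 102 called lower and grey points the rest. The vertical axis is cut, and genes past it are among those not called. Foxm1 and Mki67 lie about 2 log2 units below 0, and Apoe is the called gene with the highest level.

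Of 35 genes in a list of cell-division genes, 17 fell, none rose and 18 did not pass the test. Their median log2 change was -1.49 against 0 over all genes. In 33 of 35, against 16.6% of all genes, both 3-month libraries lay below every 1-month library. The summed CPM of the list was 1873 to 2115 at 1 month and 865.8 to 901.6 at 3 months, so both 3-month libraries were far below the lowest value at 1 month. The 3-month sums lay within the sham range of 650.9 to 929.9, and the 7-day libraries were higher than both at 3041 to 3094. The number of members that fell was 6, 9 and 8 without replicates 1, 2 and 3 at 1 month and 7 and 4 without replicates 1 and 3 at 3 months.

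The upstream sequences of 3 members of this list that fell are shown because promoters of mitotic genes are known to hold 2 short elements, CCAAT, bound by the factor NF-Y, and TTTGAA, the cell cycle genes homology region. They are the 250 bases before the RefSeq start in build GRCm38.p6, written 5′ to 3′ on the gene's strand, with CCAAT and TTTGAA on either strand in capitals (ATTGG and TTCAAA where the match is on the opposite strand). Mki67, whose protein coats mitotic chromosomes, is at chr7:135716380-135716629 on the minus strand. Top2a, the topoisomerase that untangles replicated chromosomes, is at chr11:99024190-99024439 on the minus strand. Kif11, the motor that separates spindle poles, is at chr19:37376132-37376381 on the plus strand.
Mki67: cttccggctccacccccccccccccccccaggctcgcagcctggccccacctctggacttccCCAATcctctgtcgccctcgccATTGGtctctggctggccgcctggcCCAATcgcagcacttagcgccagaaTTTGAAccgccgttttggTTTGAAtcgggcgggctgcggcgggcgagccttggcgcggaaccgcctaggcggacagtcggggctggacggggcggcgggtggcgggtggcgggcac
Top2a: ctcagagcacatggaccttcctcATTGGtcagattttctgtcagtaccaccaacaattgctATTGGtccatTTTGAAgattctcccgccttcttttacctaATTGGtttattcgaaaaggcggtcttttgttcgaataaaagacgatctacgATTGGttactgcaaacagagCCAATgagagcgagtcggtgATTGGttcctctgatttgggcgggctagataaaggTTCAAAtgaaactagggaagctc
Kif11: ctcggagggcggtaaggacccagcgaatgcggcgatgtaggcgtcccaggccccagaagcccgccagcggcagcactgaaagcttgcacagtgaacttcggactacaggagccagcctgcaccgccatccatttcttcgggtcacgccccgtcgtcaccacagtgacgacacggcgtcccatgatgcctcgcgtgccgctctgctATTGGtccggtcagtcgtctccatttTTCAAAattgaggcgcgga

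The Mki67 window held 3 matches to CCAAT and 2 to TTTGAA, that of Top2a held 6 and 2, and that of Kif11 held 1 of each. Over windows from 250 bases before to 50 after the start, searched on both strands, CCAAT was present in 53 of the 77 fallen genes with an entry in the promoter table (68.8%) and TTTGAA in 38 (49.4%). Of 14993 tested genes with an entry, 41.5% held CCAAT and 16% held TTTGAA. Among the 26 rises with an entry the shares were 38.5% and 11.5%. They were 86.2% and 51.7% over all 29 cell-division list members with an entry, fallen or not. Over the 13 of these that fell they were 92.3% and 69.2%. These are descriptions of letters in a window, base composition was not matched, and Foxm1 was among the genes without an entry.

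Regulators of mitotic entry were among the falls. Foxm1 (chr6:128362967-128376146, plus strand), the transcription factor that drives mitotic genes, had 52.9, 61.4 and 62.4 CPM at 1 month and 14.8 and 12.2 at 3 months. Its log2 change was -2.12 ± 0.22 (SE; adjusted p = 0.000251, edgeR). One 3-month value lay within and the other below the sham range of 14.7 to 20.4 CPM, and the 7-day values reached 75.2 to 86.8. Cdk1, the kinase that starts mitosis, had 35.8, 28.4 and 28.3 CPM at 1 month and 8.57 and 10 at 3 months. Its log2 change was -1.73 ± 0.27, with no overlap between the groups. Ccna2, its cyclin partner, had 52.3, 61.2 and 50.5 CPM and then 9.65 and 22.9, a change of -1.76 ± 0.31. Ccnb1, the mitotic cyclin, went from 37.2, 39.5 and 38.4 CPM to 8.3 and 10.5 and did not pass the test (log2 change -2.03, adjusted p = 0.165, edgeR). Foxm1, Cdk1, Ccna2, Ccnb1 and, further on, Racgap1, Aspm, Aurkb, Bub1b, Tpx2, Rrm1, Rrm2, Pcna and the Mcm genes fall outside the rule for named genes and were chosen after their values were seen.

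Genes of the spindle and of the kinetochore, the protein complex that ties chromosomes to the spindle, were among the falls. Cenpf (chr1:189640606-189688086, minus strand), a kinetochore protein, had 71.9, 65.6 and 71.7 CPM at 1 month and 20.2 and 13.4 at 3 months (69.7 ± 3.57 against 16.8 ± 4.8, SD, n = 3 and 2). Its log2 change was -2.05 ± 0.25 (adjusted p = 0.000906, edgeR). Its motor partner Cenpe had 32.1, 26.0 and 42.2 CPM and then 8.71 and 6.71, a change of -2.11 ± 0.31. For both genes the highest 3-month library was far below the lowest 1-month library. Ndc80, the core microtubule-binding subunit of the kinetochore, had the largest fall among genes with a mean of at least 5 CPM, from 16.9, 17.2 and 14.7 CPM to 4.01 and 0.857 (log2 change -2.70 ± 0.47). The 2 values at 3 months differed several-fold from each other, yet both lay below every 1-month library. Kif11 had 58.4, 58.8 and 62.9 CPM and then 24.3 and 14.0, a change of -1.64 ± 0.24. Kif2c, a motor that depolymerises microtubules, had a log2 change of -2.41 ± 0.34, and Kifc1, which bundles spindle poles, one of -2.19 ± 0.35. Spag5 and Troap, proteins of the spindle, changed by -2.23 ± 0.33 and -2.15 ± 0.43. Dlgap5, a spindle assembly factor, fell by 2.24 on the log2 scale, from 16.8, 14.5 and 25.0 CPM to 4.09 and 3.86. Cenpi, needed to build centromeric chromatin, changed by -2.13 ± 0.44. Aspm, a spindle pole protein, changed by -1.99 ± 0.26. The spindle checkpoint kinase Bub1b, the chromosomal passenger kinase Aurkb and the spindle factor Tpx2 had log2 changes of -2.12, -2.11 and -1.89.

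Racgap1 and Cep55, which act in the last step of division, fell, as did Mki67 and Top2a. Racgap1, which positions the cleavage furrow, had 108, 88.7 and 90.4 CPM at 1 month and 31.4 and 20.5 at 3 months (log2 change -1.88 ± 0.23). Cep55, which organises the final cut between daughter cells, had 12.2, 14.3 and 17.8 CPM and then 3.07 and 1.67 (-2.62 ± 0.39). Mki67 (chr7:135689784-135716361, minus strand) had 212, 194 and 203 CPM at 1 month and 61.8 and 37.5 at 3 months, with 32.6 to 58.9 in sham libraries and 234 to 359 at 7 days. Its log2 change was -2.03 ± 0.27 (adjusted p = 0.00305, edgeR), and the 3-month values overlapped the sham range. Top2a had 182, 187 and 194 CPM and then 65.7 and 40.7, a change of -1.82 ± 0.35.

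Of 9 genes of DNA synthesis looked at, 2 fell and 7 did not pass the test. Rrm1 and Rrm2, the subunits of the enzyme that makes deoxynucleotides, fell by 1.07 and 1.14 on the log2 scale. The replicative helicase genes Mcm2 to Mcm7 had log2 changes from -0.96 (Mcm5) to -0.32 (Mcm3), and none passed the test. Pcna, the sliding clamp of the polymerase, had 217, 181 and 169 CPM at 1 month and 158 and 157 at 3 months (log2 change -0.26, adjusted p = 0.72, edgeR). Brca1, a repair protein of replicating DNA, fell by 2.14 on the log2 scale, from 25.9, 26.3 and 24.1 CPM to 8.99 and 2.38.

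**Figure D2:**
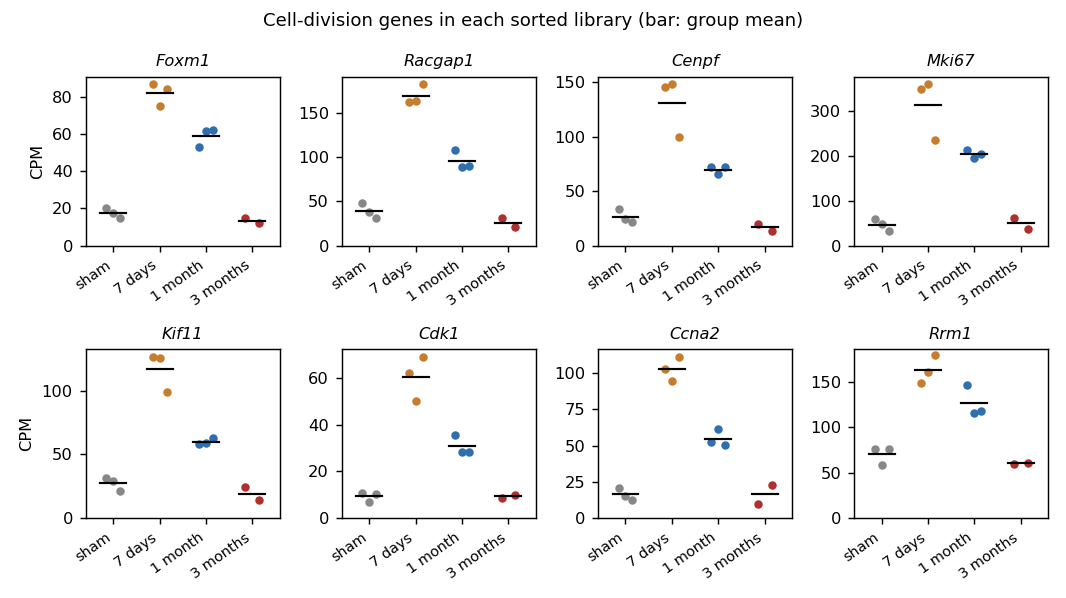
Level (CPM, vertical axis starting at 0) of 8 cell-division genes in each sorted library of the sham, 7-day, 1-month and 3-month groups; points are libraries and bars are group means. In each panel both 3-month libraries lie below the 3 at 1 month, and the 7-day libraries are higher still.

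Placed against the earlier groups, 83 of the 102 falls were above every sham library at 1 month. Counted separately over the same 102, 70 had all 7-day libraries above every 1-month library. At 3 months 41 of the 102 lay below every sham library, 16 had both values within the sham range and 6 lay above every sham library. Of the 35 cell-division genes, 34 were above every sham library at 1 month and 5 were so at 3 months. The 102 falls were called for lower values at 3 months than at 1 month. That selection favours levels above sham at 1 month and lower ones at 3 months. Shares over all genes were not worked out for these comparisons with sham and 7 days.

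Of 15 genes of neural stem and progenitor cells, 3 fell and none rose (median log2 change -0.13). Dcx, a microtubule protein of migrating young neurons, had 121, 96.9 and 108 CPM at 1 month and 50.8 and 47.8 at 3 months (-1.14 ± 0.20, adjusted p = 0.0133, edgeR). Sox11, a transcription factor of immature neurons, and Fabp7, a fatty acid carrier of radial glia, had log2 changes of -0.90 ± 0.20 and -0.92 ± 0.19. For Sox11 and Fabp7 as for Dcx the 2 groups did not overlap. None of the 3 kept its call in every omission: 1 was called without replicate 2 at 1 month, and none was without any other single library of the 5. The notch target Hes1, another member, had 17.3, 28.3 and 23.2 CPM and then 40.8 and 25.8 and did not pass the test.

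Oligodendrocyte precursor genes were lower at 3 months in level, without a call. None of 15 passed the test, and the median log2 change was -0.49. In 11 of them, against 16.6% of all genes, both 3-month libraries lay below every 1-month library. Their summed CPM was 16030 to 16390 at 1 month and 10060 to 11910 at 3 months. Pdgfra (chr5:75152292-75198215) had 2768, 2673 and 2588 CPM and then 1653 and 1778 (log2 change -0.64 ± 0.19, adjusted p = 0.152, edgeR). Vcan and Ptprz1, chondroitin sulfate proteoglycans that precursors carry, had log2 changes of -0.81 ± 0.19 and -0.83 ± 0.20 with adjusted p of 0.0626 and 0.0726 (edgeR), and Lhfpl3 one of -0.69 ± 0.17. Fitted on the 5 libraries alone, 10 of the 15 were called lower, against 3.66% of all genes. The part of this level in the falls of the division genes was not tested.

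In a list of 18 proteoglycan, tenascin and chondroitin sulfate enzyme genes, which form the matrix that limits axon growth, none passed the test (median log2 change -0.62). Tnr, the tenascin of perineuronal nets, had 2535, 2428 and 2608 CPM at 1 month and 1236 and 1243 at 3 months (-1.03 ± 0.25, adjusted p = 0.0682, edgeR). Ncan, a neural proteoglycan, had a log2 change of -0.81 ± 0.19. With the 5 libraries alone, 8 of the 18 were called lower, against 3.66% of all genes. Among 21 matrix proteases and their inhibitors 1 fell: Adamts9, which cleaves Vcan, went from 62.1, 44.4 and 59.7 CPM to 24.3 and 20.1 (-1.32 ± 0.26). Its relative Adamts5 had a log2 change of -1.14 ± 0.34 and did not pass the test. Of these 21 genes 3 were called higher and 5 lower with the 5 libraries alone, against 3.52% and 3.66% of all genes.

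Other falls, chosen for their roles after their values were seen, belonged to chromatin upkeep and to neuronal or precursor signalling. Uhrf1, which brings the methyltransferase to replicated DNA, fell by 1.79 on the log2 scale and Dnmt1, that methyltransferase, fell by 0.76. Ezh2, the histone methyltransferase of the Polycomb complex, had 51.7, 56.6 and 51.6 CPM and then 28 and 18.9. Lmnb1, a nuclear lamina protein fell by 1.00. No other member of a 20-gene list of p53 targets and senescence genes passed the test. With the 5 libraries alone 3 of the 20 were called lower and 1 higher, against 3.66% and 3.52% of all genes. The glutamate receptors Grm5 and Grik3 fell by 0.82 and 0.89 on the log2 scale. Grm3, another glutamate receptor, had 0.401, 0.857 and 0.549 CPM at 1 month and no count in either 3-month library. Sham libraries had 4.12 to 7.93 CPM and 7-day libraries 1.37 to 2.87, so Grm3 was already below both groups at 1 month. Its 1-month mean was 11.5-fold above a floor of 3 counts over both 3-month libraries, with no allowance for the spread at 1 month. At this low level Grm3 was the only fall not called with the 5 libraries alone (adjusted p = 0.317, edgeR). It was also not called with any single library of the 5 left out. Ugt8a, which makes the galactolipids of myelin, fell from 153, 138 and 142 CPM to 79.8 and 76.8. None of the other 17 oligodendrocyte genes listed passed the test. In the fit of the 5 libraries alone 3 of the 18 were called higher and 3 lower, against 3.52% and 3.66% of all genes.

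Genes of antigen presentation were among the rises. Of a list of 21, 6 rose, none fell and 15 did not pass the test, with a median log2 change of 1.16 against 0 over all genes. In 19 of 21, against 15.9% of all genes, both 3-month libraries lay above every 1-month library. Their summed CPM was 2048 to 2739 at 1 month and 5205 to 7061 at 3 months, above the sham range of 574.8 to 1110 and the 7-day range of 1449 to 1792. All 21 members had both 3-month values above every 7-day value, and the share over all genes was not worked out. The number that rose was 2, 2 and 3 without replicates 1, 2 and 3 at 1 month, and 5 and 2 without replicates 1 and 3 at 3 months.

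Both class II beta chains rose. H2-Ab1 (chr17:34257689-34269419, plus strand), the beta chain of the I-A molecule, had 39.1, 29.7 and 21.4 CPM at 1 month and 153 and 209 at 3 months. Its log2 change was 2.59 ± 0.27 (adjusted p = 0.000251, edgeR), and the sham and 7-day libraries had 11.2 to 18.2 CPM. H2-Eb1 (chr17:34305867-34316674, plus strand), the beta chain of I-E, had 37.1, 21.7 and 14.6 CPM and then 140 and 171 (2.67 ± 0.34). For both genes the lower 3-month library was several times the highest value in any other sorted library. H2-Aa, the alpha chain of I-A, had 34.3, 28.9 and 10.9 CPM and then 139 and 199 (log2 change 2.77, adjusted p = 0.0582, edgeR). Cd74, the chaperone of class II molecules, had 123, 146 and 82.2 CPM and then 554 and 793 (2.53, adjusted p = 0.0615, edgeR). Both missed the threshold although their groups did not overlap. Ciita, the activator of class II transcription, had 2.41, 2.79 and 1.62 CPM and then 2.16 and 7.47, so its groups overlapped. H2-Aa, Cd74, Ciita, H2-D1, Tapbp and B2m were named after their values were seen.

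Of the class I heavy chains, 3 rose. H2-K1 (chr17:33996017-34000347, minus strand), a classical class I heavy chain, had 242, 329 and 318 CPM at 1 month and 561 and 767 at 3 months (1.16 ± 0.21, adjusted p = 0.0164, edgeR). H2-D1 (chr17:35262730-35267499, plus strand), the other classical heavy chain, had 459, 633 and 628 CPM and then 1125 and 1488.5 (1.19 ± 0.26). H2-T23, a non-classical heavy chain read by natural killer cells, had 43.6, 56.5 and 57.6 CPM and then 122 and 180 (1.53 ± 0.26). In each of these the lower 3-month library was well above the highest 1-month library. Tapbp, which loads peptides onto class I molecules, had 109, 124 and 124 CPM and then 233 and 306 (1.18 ± 0.23). B2m, the shared light chain, had 645, 991 and 949 CPM and then 1586 and 2119, with a log2 change of 1.10 that did not pass the test (adjusted p = 0.236, edgeR). Class I heavy chains share near-identical stretches, so how their counts were divided among copies is uncertain. Without replicate 3 at 3 months the adjusted p (edgeR) was 0.235 for H2-T23, 0.279 for H2-K1, 0.305 for Tapbp and 0.403 for H2-D1.

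**Figure D3:**
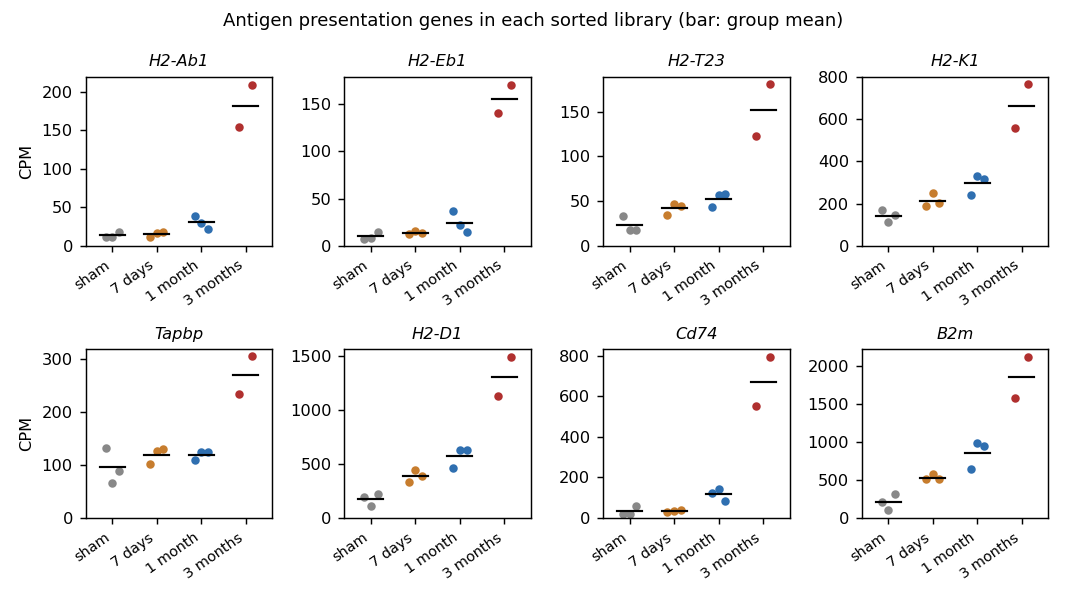
Level (CPM, vertical axis starting at 0) of 8 antigen presentation genes in each sorted library of the sham, 7-day, 1-month and 3-month groups; points are libraries and bars are group means. In each panel both 3-month libraries lie above all the other 9 sorted libraries, including those of Cd74 and B2m, which did not pass the test.

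The upstream windows of H2-Eb1 and H2-K1 are shown as one class II and one class I gene that rose. H2-Eb1 is at chr17:34305617-34305866 on the plus strand and H2-K1 at chr17:34000348-34000597 on the minus strand (GRCm38.p6, 250 bases before the RefSeq start). Capitals mark CCAAT, which is part of the class II promoter's Y box, AGTGAAA, a core of interferon-responsive elements, and GATTCCC, a core of the class I promoter's NF-kB site, on either strand (ATTGG for the first, TTTCACT for the second and GGGAATC for the third on the opposite one).
H2-Eb1: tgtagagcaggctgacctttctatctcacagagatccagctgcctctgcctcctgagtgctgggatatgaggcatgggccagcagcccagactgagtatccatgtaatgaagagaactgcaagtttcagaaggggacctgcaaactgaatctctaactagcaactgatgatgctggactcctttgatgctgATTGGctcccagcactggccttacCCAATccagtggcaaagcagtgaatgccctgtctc
H2-K1: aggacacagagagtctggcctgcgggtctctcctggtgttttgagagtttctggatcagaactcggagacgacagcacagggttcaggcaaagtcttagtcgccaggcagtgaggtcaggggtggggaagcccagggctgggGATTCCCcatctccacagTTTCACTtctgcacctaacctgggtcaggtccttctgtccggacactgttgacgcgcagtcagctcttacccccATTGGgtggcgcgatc

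H2-Eb1 held 2 matches to CCAAT and none to the others, and H2-K1 held 1 match to each of the 3. Over the windows of 16 of the 21 antigen presentation genes with an entry, CCAAT was in 93.8%, AGTGAAA in 43.8% and GATTCCC in 25.0%. Of the 14993 tested genes with an entry, 41.5%, 4.47% and 4.04% held them. H2-Ab1 was among the genes without an entry.

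None of 29 tested members of a list of interferon-stimulated genes was called (median log2 change 0.92). In 18 of them, against 15.9% of all genes, both 3-month libraries lay above every 1-month library. Ifi35 had a log2 change of 1.05 ± 0.37, Xaf1 of 1.18 ± 0.44 and Mx1 of 1.77 ± 0.66. With the 5 libraries alone 9 of the 29 were called higher, against 3.52% of all genes. Gbp2, an interferon-induced GTPase that is not in that list, rose from 30.9, 39.9 and 49.0 CPM to 74.9 and 139 (1.42 ± 0.28, adjusted p = 0.0271, edgeR). It is one of 3 genes called higher, with H2-T23 and H2-D1, among 11 tested genes of a set known as A1-type reactive astrocyte genes; of those 3 calls 2 remained without replicate 1 at 3 months and none without any other single library of the 5. Of 12 A2-type genes 1 fell, B3gnt5, a glycosyltransferase, from 31.2, 27.6 and 33.7 CPM to 11.4 and 8.67.

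Genes of lipid handling and the lysosome were higher in level, with 1 call among 29 tested members of their list (median log2 change 0.69). Apoe (chr7:19696109-19699188, minus strand), the main lipid carrier of the nervous system, had 11016, 14724 and 16386 CPM at 1 month and 29602 and 39918 at 3 months. Its log2 change was 1.31 ± 0.24 (adjusted p = 0.0174, edgeR), and sham libraries had 1676 to 2485 CPM. It was the most abundant gene in all 5 libraries and took 2.95% and 3.73% of the counts at 3 months. Axl, a receptor for the uptake of dead cells, and Lipa, the lysosomal lipase, had log2 changes of 0.73 ± 0.19 and 0.80 ± 0.23 and did not pass the test. Lgals3, a galectin that binds damaged lysosomes, had 90.1, 119 and 118 CPM and then 255 and 299 (1.34 ± 0.38, adjusted p = 0.191, edgeR). In 28 of the 29 members, against 15.9% of all genes, both 3-month libraries lay above every 1-month library. With the 5 libraries alone 17 of the 29 were called higher, against 3.52% of all genes. Atp6v0d2 (chr4:19876841-19922605, minus strand), a proton pump subunit of macrophages and osteoclasts, rose from 14.4, 16.1 and 16.6 CPM to 83.1 and 57.5 (2.16 ± 0.27) and had no count in the sham libraries. Tcirg1, another subunit of that pump and chosen after its values were seen, went from 90.1, 113 and 127 CPM to 200 and 237.

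Other genes with large rises had varied roles. Prg4, a lubricating proteoglycan, had the largest log2 change of all rises (3.95 ± 0.71), from 1.39, 2.15 and 0.779 CPM to 39.1 and 5.62. Its 2 values at 3 months were far apart, and without replicate 1 at 3 months its adjusted p was 0.611 (edgeR). Tgfbi, a matrix protein induced by TGF-beta, had 31.8, 37.2 and 35.9 CPM and then 83.9 and 147 (1.72 ± 0.28). It was the only one of 30 genes of that pathway to pass the test. With the 5 libraries alone 6 of the 30 were called higher and 3 lower, against 3.52% and 3.66% of all genes. Ass1, an enzyme of arginine synthesis, and Hhex, a homeobox factor, had log2 changes of 2.08 ± 0.38 and 1.98 ± 0.42. Hhex had 3.74, 5.16 and 6.55 CPM and then 20.0 and 20.6. Mamdc2, a proteoglycan-like secreted protein, had 20.7, 22.8 and 22.9 CPM and then 65.1 and 79.4 (1.71 ± 0.35). Of the 32 rises, 30 lay above every sham library at 3 months and 31 above every 7-day library. The 32 were called for high values at 3 months, which favours such counts, and shares over all genes were not worked out.

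Phagocyte markers were higher in level beside these rises. None of 25 microglia and macrophage genes passed the test, and their median log2 change was 1.08. In 23 of them, against 15.9% of all genes, both 3-month libraries lay above every 1-month library. Their summed CPM was 3785 to 5822 at 1 month and 9440 to 11600 at 3 months, against 658.7 to 2334 in sham libraries and 5141 to 7712 at 7 days, and none of the 25 was at 0 in all 5 libraries. P2ry13, a purine receptor of microglia, had 23.1, 34.8 and 46.4 CPM and then 72.6 and 79.0 (1.12 ± 0.30, adjusted p = 0.11, edgeR). Spi1, the transcription factor of myeloid cells, and Adgre1, the F4/80 antigen, had log2 changes of 1.21 ± 0.37 and 1.31 ± 0.46, and Ms4a7, a macrophage membrane protein, one of 1.67 ± 0.51. C1qa had 632, 877 and 1037 CPM and then 1533 and 2379 (1.2 ± 0.55, adjusted p = 0.445, edgeR). With the 5 libraries alone 19 of the 25 were called higher, against 3.52% of all genes. Their part in the rises of the antigen presentation and lipid genes was not tested. Spp1 and Gpnmb, secreted and membrane proteins of lipid-laden phagocytes, had log2 changes of 0.55 ± 0.32 and 1.22 ± 0.73 and did not pass the test.

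No endothelial, fibroblast and mural, neuronal, lymphocyte or granulocyte marker listed passed the test, and some were at or near 0. Endothelial genes, 15 in number, had a median log2 change of 0.97 and no call, and their summed CPM was 424.6 to 445.8 at 1 month and 690.8 to 953.6 at 3 months. In 13 of the 15, against 15.9% of all genes, both 3-month libraries lay above every 1-month library. With the 5 libraries alone 8 of the 15 were called higher, against 3.52% of all genes. Egfl7, an endothelial secreted factor, had the lowest p among them (1.55 ± 0.40, adjusted p = 0.0927, edgeR), and Vwf had 75.7, 47.8 and 64.8 CPM and then 119 and 125. Fibroblast and mural genes summed to 1961 to 2186 CPM and then 1659 to 1671, and neuronal genes to 788.5 to 846.2 and then 606.6 to 617.5. With the 5 libraries alone 2 of the 16 fibroblast and mural genes were called higher and 3 lower. Of 15 neuronal genes tested in that fit 2 were called lower, against 3.66% of all genes. Slc6a5 and Chat, which define inhibitory and motor neurons, were at 0 in all 5 libraries. Lymphocyte genes summed to at most 6.714 and 15.74 CPM, and Cd3d, which defines T cells, was at 0 in all 5. Granulocyte genes summed to 82.07 to 122.6 CPM and then 185.7 to 257.8, of which Csf3r, which microglia also express, made up 74.4, 104 and 123 and then 169 and 217. Elane and Ly6g, which define neutrophils, were at 0 in all 5.

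**Figure D4:**
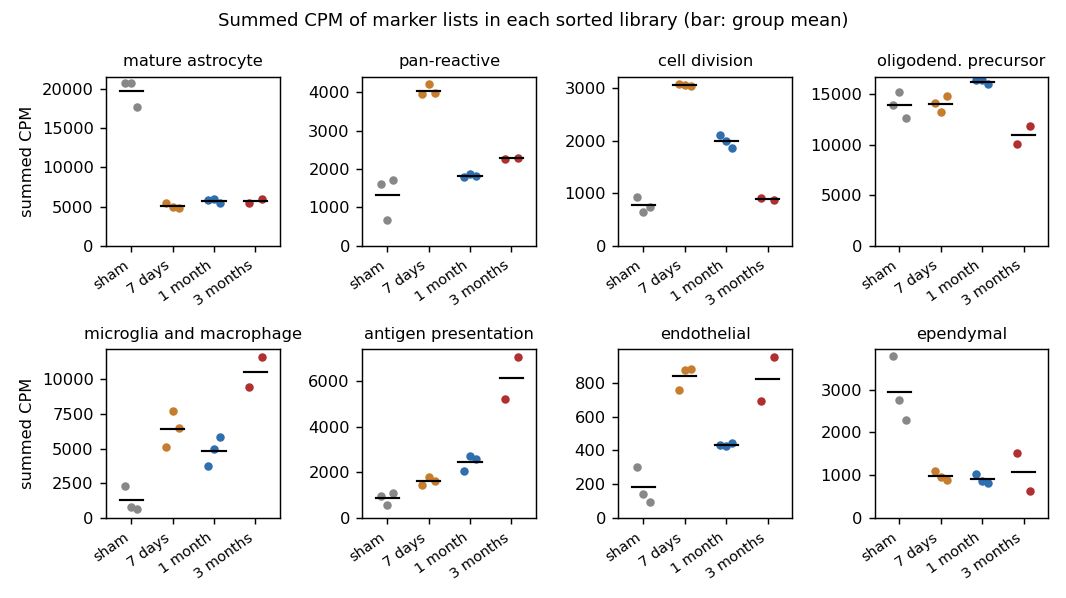
Summed CPM (vertical axis starting at 0) of 8 marker lists in each sorted library of the sham, 7-day, 1-month and 3-month groups; points are libraries and bars are group means. From 1 month to 3 months the sums of division and precursor genes are lower, those of phagocyte, antigen presentation and endothelial genes are higher, and that of mature astrocyte genes stays between 5460 and 5920 CPM.

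None of 30 mature astrocyte genes passed the test, the median log2 change was 0.09 and the summed CPM was 5460 to 5920 at 1 month and 5485 to 5902 at 3 months, against 17750 to 20740 in sham libraries. Slc1a2, the main glutamate transporter, had 410, 414 and 462 CPM and then 286 and 301 (-0.55 ± 0.24, adjusted p = 0.383, edgeR). Slc7a10 and Ntsr2 had log2 changes of 0.51 ± 0.24 and -0.52 ± 0.25, and Aqp4 and the connexin Gjb6 of -0.47 ± 0.27 and 1.11 ± 0.55. Hsd11b1, which activates glucocorticoids, had 1.04, 2.17 and 1.13 CPM and then 3.79 and 5.09 (1.60 ± 0.40, adjusted p = 0.0809, edgeR). None of 13 pan-reactive genes passed the test either (median log2 change 0.14). Gfap (chr11:102887336-102900912) had 197, 238 and 264 CPM and then 168 and 177 (-0.44 ± 0.26, adjusted p = 0.517, edgeR). Its partner filament Vim had 1076, 1063 and 997 CPM and then 1551 and 1384 (0.49 ± 0.38), so the groups of both filaments did not overlap, yet neither passed the test. With the 5 libraries alone 1 of the 30 mature astrocyte genes was called higher and 1 lower, close to the shares over all genes (3.52% and 3.66%). Of the 13 pan-reactive genes 3 were called higher in that fit, Vim among them, and Gfap was called lower. Serpina3n, Lcn2 and Timp1, genes of the acute reaction, had log2 changes of -0.13 ± 0.39, 1.19 ± 0.98 and -0.21 ± 0.79. The chemokine Cxcl10 had one of 1.18 ± 0.57 and the small heat shock gene Hspb1 one of 0.57 ± 0.39.

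Zeb2, a repressor of epithelial genes, and Zeb2os, the long non-coding RNA on its opposite strand and a subject of the series, showed no called change. Zeb2 had 367, 381 and 382 CPM at 1 month and 368 and 364 at 3 months (log2 change -0.04 ± 0.22, adjusted p = 0.985, edgeR). Zeb2os had 22.4, 27.8 and 29.8 CPM and then 31.4 and 34.3 (0.30 ± 0.28, adjusted p = 0.732, edgeR). The Zeb2os gene (chr2:45110707-45114087, plus strand) lies within Zeb2 (chr2:44983632-45117395, minus strand), and no label states whether the counting used strand, so reads of the 2 may be mixed. Of 7988 long non-coding genes tested, 2 (0.025%) were called, Gm11149 and Gm26749, both lower at 3 months. Gm11149 had 181, 205 and 181 CPM and then 111 and 108.

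The change in sorted cells was then set against the change in whole epicentre tissue, with a test of the difference between them (limma voom with sample quality weights). Of 23259 genes tested, the log2 change was higher in sorted cells for 1281 (5.51%) and lower for 1137 (4.89%), 10.4% together. The difference was called higher for 25 of the 32 rises and lower for 81 of the 102 falls. These 2 tests share the sorted libraries. Leaving out replicates 1 or 2 of the sorted 1-month group gave 1262 and 1480 called genes, leaving out replicates 1 or 3 of the sorted 3-month group 7104 and 5957, and leaving out replicates 2 or 3 of the 3-month tissue 1419 and 1096. Sorted cells and tissue also came from different mouse lines and preparations, which cannot be told apart from the difference.

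For most phagocyte and lipid genes the change differed between sorted cells and tissue. The difference was called higher for 22 of the 25 microglia and macrophage genes and 24 of the 29 lysosome and lipid genes. It was also called higher for 7 of the 15 endothelial genes, and for 5.51% of all genes tested. Apoe had a log2 change of 1.27 ± 0.33 in sorted cells and -1.17 ± 0.08 in tissue, where its CPM was 17309, 19577 and 15517 at 1 month and 9245, 6438 and 7599 at 3 months. C1qa had 884, 1017 and 763 CPM in tissue at 1 month and 366, 279 and 321 at 3 months, and the difference was 2.58 ± 0.34 (adjusted p = 0.00234, limma). For both genes all 3 tissue libraries were lower at 3 months while both sorted libraries were higher. Gpnmb and Spp1 differed by 2.62 ± 0.42 and 1.92 ± 0.38. Vim had a log2 change of -0.87 ± 0.07 in tissue and 0.44 ± 0.28 in sorted cells, a difference of 1.31 ± 0.29 (adjusted p = 0.0185, limma), and Gfap had -0.47 ± 0.04 and -0.46 ± 0.22, a difference of 0.02 ± 0.22.

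Antigen presentation differed for 13 of 21 genes, all higher in sorted cells, against 5.51% of all genes tested. H2-K1 had a change of 1.09 ± 0.38 in sorted cells and -0.80 ± 0.11 in tissue. The class II genes were not called: H2-Ab1 had 2.44 ± 0.63 in sorted cells and 0.44 ± 0.20 in tissue (difference 1.99 ± 0.66, adjusted p = 0.104, limma), and its tissue CPM was 34.1, 55.5 and 46.5 at 1 month and 109, 54.8 and 51.8 at 3 months. Division genes differed the other way for 17 of 35, against 4.89% of all genes tested. Cenpf had 3.51, 3.91 and 2.69 CPM in tissue at 1 month and 4.16, 2.04 and 4.5 at 3 months, and its difference was -2.32 ± 0.41 (adjusted p = 0.00282, limma). Mki67 had a difference of -3.41 ± 1.09 that was not called (adjusted p = 0.0993, limma), with tissue values that overlapped between the times. Dcx differed by -1.32 ± 0.23 and Pdgfra by -0.57 ± 0.16.

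**Figure D5:**
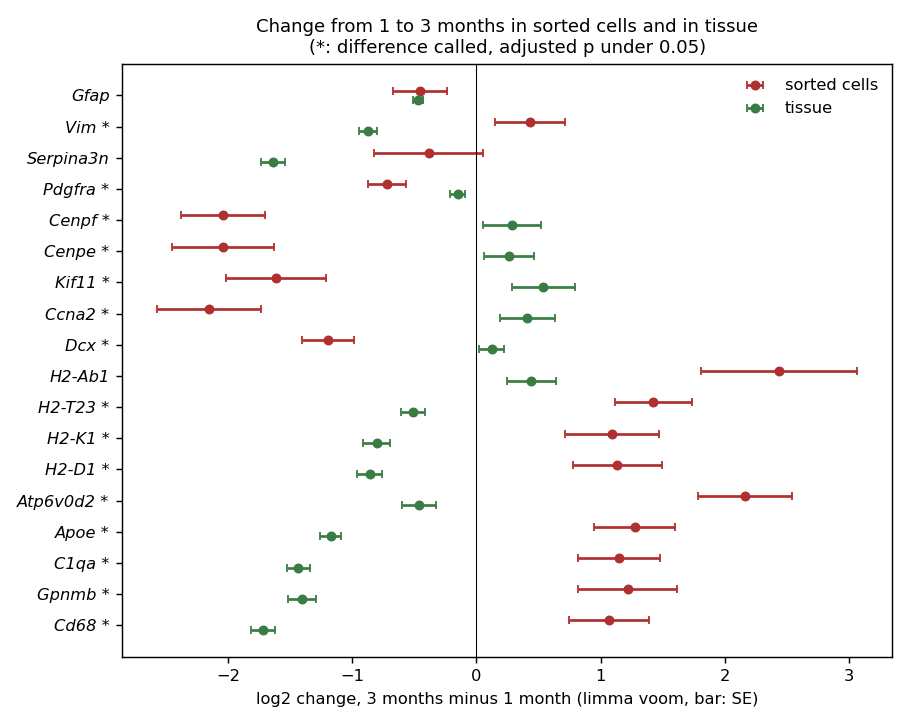
Log2 change from 1 month to 3 months (horizontal axis, limma voom) in sorted cells (red) and in whole tissue (green) for 18 genes; bars are standard errors and an asterisk marks a called difference. Apoe, C1qa, Gpnmb and Cd68 lie right of 0 in sorted cells and left of it in tissue, and Cenpf, Cenpe, Kif11 and Ccna2 lie left of 0 in sorted cells alone.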

How the data were processed

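The deposited table held raw read counts per gene (Ensembl ID and symbol), as the authors deposited them. Per the submitters' processing notes, build mm10 and the tools TopHat2 2.1.0, FastQC, DESeq2 and Cufflinks 2.2.1 were used; their roles, the counting program, the annotation and any use of strand are not given in the sources used here. Library preparation was directional, per the labels' protocols. Nothing says that replicates were prepared on separate days, so p-values measure the spread between these pooled samples.

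All 11 sorted libraries were fitted together in edgeR 4.0.16 (R 4.3.3) with trimmed mean scaling, a filter for genes with a minimum count of 10 (filterByExpr), the quasi-likelihood test of 3 months minus 1 month and Benjamini-Hochberg adjustment at 0.05. Genes are called higher or lower at that threshold. The SE beside an edgeR change was worked back as its size over the square root of the test's F statistic. CPM used the scaled totals. The difference from tissue was an interaction in limma 3.58.1 (voom with quality weights). Alternatives were RLE factors, DESeq2 1.42.0, no filter, the 5 libraries alone, a replicate block and omission of each library. Both fits were tested on simulated counts with known changes; in that simulation the share of false calls was above the nominal level in both, so the threshold is not an exact error rate.

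Genes named are the 10 largest called rises and falls with separate groups and a mean of at least 5 CPM in the higher group, up to 4 members of each described list with the lowest p, and 14 fixed genes; others are marked, and results for some genes are not reported here. The members and the 39 gene lists were chosen with earlier results of these data known. Gene positions are GRCm38 and promoter sequences are RefSeq's (GRCm38.p6).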

Additional observations from a re-analysis of the deposited data

Results flagged for a closer look

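For 72 genes named in the text the change from 1 month to 3 months differed between sorted cells and whole tissue by a test of the difference itself (limma voom, adjusted p at 0.05), 31 with a higher and 41 with a lower change in sorted cells, among 1281 higher and 1137 lower differences over all genes. Many of these genes were chosen after their values were seen, so their number is no measure of how common such differences are. The values below are differences in log2 change, sorted minus tissue.

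Among phagocyte, lipid and lysosome genes the difference was 2.79 for Cd68, 2.62 for Gpnmb, 2.58 for C1qa, 2.45 for Apoe, 2.16 for Spi1, 2.13 for Ms4a7, 2.07 for Tcirg1, 1.97 for Lgals3 and 1.92 for Spp1. It was 1.62 for both P2ry13 and Adgre1, 1.35 for Axl and 1.17 for Lipa. Atp6v0d2 and Hhex, which rose in sorted cells, differed by 2.63 and 2.83, Ass1 by 1.69 and Mamdc2 by 1.47. Among class I and peptide loading genes it was 1.99 for H2-D1, 1.94 for H2-T23, 1.90 for B2m, 1.89 for H2-K1 and 1.5 for Tapbp. The interferon-stimulated genes Mx1, Ifi35 and Xaf1 differed by 2.50, 1.37 and 1.25. The filament Vim differed by 1.31, Hspb1 by 2.06, Csf3r by 1.89, Cxcl16 by 1.72, Egfl7 by 1.64 and Rpl12 by 0.908.

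Among genes of the spindle and kinetochore the difference was -3.39 for Ndc80, -3.02 for Dlgap5, -2.68 for Bub1b, -2.32 for both Cenpf and Kifc1, -2.31 for Cenpe and -2.25 for Kif2c. It was -2.24 for Spag5, -2.21 for Aspm, -2.15 for Kif11, -2.14 for Cenpi, -1.89 for Tpx2 and -1.76 for Racgap1. The regulators Ccna2, Ccnb1 and Foxm1 differed by -2.56, -2.45 and -1.78. Genes of DNA synthesis, repair and chromatin had -2.47 for Brca1, -1.5 for Uhrf1, -1.34 for Rrm1, -1.07 for Ezh2, -1.04 for Mcm2, -0.979 for Lmnb1 and -0.889 for Dnmt1.

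Among progenitor and precursor genes, Dcx differed by -1.32, Ptprz1 by -1.12, Sox11 by -0.957, Fabp7 by -0.756, Lhfpl3 by -0.744 and Pdgfra by -0.569. The matrix genes Adamts9, Adamts5, Tnr and Ncan differed by -1.45, -1.09, -0.976 and -0.898. Cyp51 and Sqle of cholesterol synthesis differed by -1.35 and -1.15, B3gnt5 by -1.25, Ugt8a and Sema3d by -1.10 each and Grik3 by -1.04. The long non-coding genes Gm26749 and Gm11149 differed by -2.68 and -0.891. The 2 kinds of sample differ in mouse line, dissociation and sorting as well as in cell content, and these cannot be told apart.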

How the results depend on the processing

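The count of called genes (134, of which 32 rose and 102 fell) moved with the choices made. It was 649 (250 and 399) with DESeq2, 749 (411 and 338) without the filter on low counts and 1565 (767 and 798) with the 5 libraries alone. Without the sham libraries, an alternative chosen after seeing the data, it was 1918 (839 and 1079). Omitting each library in turn gave 18 to 73 genes, 4 to 16 higher and 12 to 57 lower. The share of called genes that were higher was 23.9% in the fit reported, 34.1% with RLE factors, 38.5% with DESeq2 and 54.9% without the filter. Without replicate 1 at 3 months the median log2 change of all genes shifted to -0.127. All 32 rises and 102 falls were called by DESeq2, and 32 and 88 with RLE factors. The cause of these differences was not tested.

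Replicate numbers 1 and 3 are shared by the groups, but nothing says that they pair the mice; deviations from the group means correlated across genes with r = 0.18 for number 1 and 0.096 for number 3. With the replicate number as a block, 97 genes were called (22 and 75), 19 and 69 of them among the rises and falls reported, and the difference from tissue gave 1063 (616 and 447).

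The difference from tissue (2418 genes, 1281 higher and 1137 lower) ranged over omissions from 1096 to 7104, with 614 to 3236 higher and 482 to 3868 lower. Among the named genes and alternatives run, the difference of 1 reversed: that of Ccdc153, an ependymal gene, was 0.203 (not called), but -0.6849 without replicate 1 and 0.7308 without replicate 3 of the sorted 3-month group, both past the threshold. The number of cell-division genes that fell was 4 to 9 over omissions and 26 with DESeq2.

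With 2 libraries at 3 months the spread there is estimated largely from the other groups, and replicate 3 there was the shallowest of the 5 libraries.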

Other observations

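Several gene groups not described above had no called member. Ribosomal protein genes, whose products build the cytosolic ribosome, had a median log2 change of 0.47 over 80 genes, none called. In 74 of them, against 15.9% of all genes, both 3-month libraries lay above every 1-month library. Rpl12 had 178, 204 and 182 CPM and then 252 and 352 (0.68 ± 0.26, adjusted p = 0.31, edgeR). With the 5 libraries alone 44 of the 80 were called higher, against 3.52% of all genes. Many ribosomal genes have near-identical pseudogenes, so their counts are uncertain. Genes of cholesterol synthesis had a median of -0.36 over 24 genes, none called: Cyp51, a sterol demethylase, had 130, 103 and 99.1 CPM and then 64.0 and 65.7 (adjusted p = 0.14, edgeR), and Sqle, which makes the sterol precursor squalene epoxide, 115, 123 and 107 and then 76.7 and 65.2. With the 5 libraries alone 5 of the 24 were called lower, against 3.66% of all genes. The difference from tissue was called lower for 7 of the 24, against 4.89% of all genes.

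Complement genes had a median of 0.78 over 19 tested genes, none called, and C3, the central component, had 87.9, 113 and 125 CPM and then 177 and 252 (adjusted p = 0.531, edgeR). Cytokine and NF-kB genes had a median of 0.61 over 31, none called; Cxcl16, a chemokine and scavenger receptor, had 32.1, 44.8 and 47.4 CPM and then 80.8 and 98.1 (adjusted p = 0.113, edgeR). Axon guidance genes had a median of -0.30 over 36, with Sema3d at 398, 370 and 402 CPM and then 220 and 204 (adjusted p = 0.0959, edgeR). With the 5 libraries alone 9 of 18 complement genes and 9 of 31 cytokine genes were called higher, against 3.52% of all genes. In that fit 1 complement gene was called lower. Of the 36 axon guidance genes 2 were called higher there and 6 lower, the latter against 3.66% of all genes. Nuclear genes of oxidative phosphorylation had a median of 0.04 over 73 genes, none called, against 0 over all genes.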
